A study of Mus musculus with 6 samples.

Results

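The genes described here encode semaphorins, plexins, neuropilins, Slits, Robo receptors, netrins, netrin receptors of the UNC5 family, DCC and Draxin. Protein-coding rows were taken by gene name, which gave 51 genes of the 55573 rows in the table, 30 for ligands and 21 for receptors. The name pattern also takes in Unc5cl, a gene related to Unc5c that is not an established guidance receptor. A count was present in at least 1 library for 43 of the 51, and 32 passed the filter on low counts and were tested, 21 ligands and 11 receptors. A further 11 had too few counts to test, and 8 were listed at 0 in all 6 libraries.

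RNA was sequenced in bulk from Hepa1-6, a line from a mouse liver tumour, as 3 libraries of the Matr3 knockout (KO) made with CRISPR/Cas9 and 3 wild-type (WT) libraries, all grown in the same medium with serum. Matr3 encodes matrin 3, an RNA-binding protein of the nuclear matrix. The labels do not say whether the knockout is 1 clone or several, nor whether each library had its own culture, so the p-values reflect only the spread among these 6 libraries, possibly a technical one. Matr3 itself was lower but not lost, at 79.1 ± 6.08 CPM in KO cells and 129 ± 4.65 CPM in WT cells (SD, n = 3 each; log2 fold change -0.71, SE 0.0899, edgeR quasi-likelihood adjusted p = 0.00270). CPM are counts scaled to library size.

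Library totals lay between 20736570 and 30794032 counts, of which the 51 genes took 0.155% to 0.169%. KO library 2 stood apart from the other KO libraries: a library's deviation from the mean log2 CPM correlated across genes with GC content at -0.27 in it, against 0.26 in both others and -0.03, -0.03 and -0.16 in the WT libraries. WT library 1 also stood apart. It had the smallest total but the most genes with a count, 23440 against 20450 to 21217 in the others. Its counts differed from those of WT libraries 2 and 3 by a chi-square of 23.0 and 27.4 per gene. Between WT libraries 2 and 3 the chi-square was 6.19 per gene. The labelled cell type was checked against 13 hepatocyte and hepatoma markers. Krt8, Krt18, Foxa2, Apoa2 and Afp averaged at least 1 FPKM over the 6 libraries (read abundance per gene length and library depth). All the others, Alb, Ttr, Hnf4a, Apoa1, Apob, Trf, Fgb and Serpina1a, were at or near 0. The sum over the 13 markers was 580 to 618 FPKM in the KO libraries and 335 to 400 FPKM in the WT libraries, most of it from the keratins. No endothelial marker of 5 averaged 1 FPKM, and their sum reached 0.199 to 0.316 FPKM in the KO libraries and 0.633 to 0.821 FPKM in the WT libraries, and 5 of 6 immune markers were listed at 0. Of 6 neuronal and glial markers, Tubb3 and Syn1 passed 1 FPKM and Rbfox3 and Olig2 were listed at 0, with a sum of 8.84 to 11.3 FPKM in the KO libraries and 7.11 to 9.35 FPKM in the WT libraries. Of 6 fibroblast markers Col1a1 passed 1 FPKM, with a sum of 3.03 to 4.29 FPKM in the KO libraries and 2.38 to 2.91 FPKM in the WT libraries. The part of these cell types in the results below was not tested.

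Guidance cues steer growing axons, and the same ligands and receptors act on endothelial, epithelial and tumour cells. Semaphorins bind plexins, whose intracellular part acts on small GTPases, and most secreted class 3 semaphorins need a neuropilin as co-receptor. Slits bind Robo receptors. Netrins bind DCC, its relative neogenin and the UNC5 receptors, and Draxin binds both DCC and netrin-1.

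In the Matr3 knockout 8 of the 32 tested genes changed, and all 8 encode ligands. Sema3f, Draxin, Ntn3, Sema7a, Sema3b and Ntn1 fell, and Ntn4 and Sema3e rose (edgeR quasi-likelihood test, 0.05 on p-values adjusted over 14842 genes by Benjamini-Hochberg). That is 25.0% of the tested members, against 15.2% of all tested genes. The difference between these shares was not tested. Draxin, among the 8, was added by its own name and not through a family name pattern. The members were chosen with earlier results of these data known. By direction, 6 members fell where 7.48% of all tested genes did, and 2 rose where 7.69% did. By edgeR's fold, 6 of the 32 tested members passed with a change of at least 2-fold, against 3.8% of all tested genes. In the authors' deposited table that size is reached by Sema3f (log2 fold change -2.41) and Draxin (-2.09) alone among the 8, and the other 4 of the 6 have smaller values there, given with each gene. Deposited values are small for genes with few counts, as for Sema4g at -0.21 with 5 counts in the KO libraries and 17 in the WT libraries. For such genes they and edgeR's folds are unlike measures. Called members numbered 4 without KO library 1, 5 without KO library 3, 3 without WT library 2 and 4 without WT library 3. None of the 11 tested receptors passed in this fit, with 2, Plxna3 and Plxnd1, at an unadjusted p under 0.05. Other fits did call receptors. DESeq2 and edgeR without the filter on low counts each called Plxna3, and edgeR with the per-library GC trend removed called Plxna3 and Plxnd1. Without KO library 2 and WT library 1, edgeR called 4, Plxna3, Plxnd1, Plxna1 and Nrp2. That fit called far more genes in all than the main fit (numbers at the end), so its 4 calls alone say little about receptors. The difference between ligands and receptors was not tested. Groups of libraries did not overlap for 15 of the 32 tested members, against 36.6% of all tested genes. The median log2 fold change was -0.14 over the tested members and -0.02 over all tested genes.

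**Figure D1:**
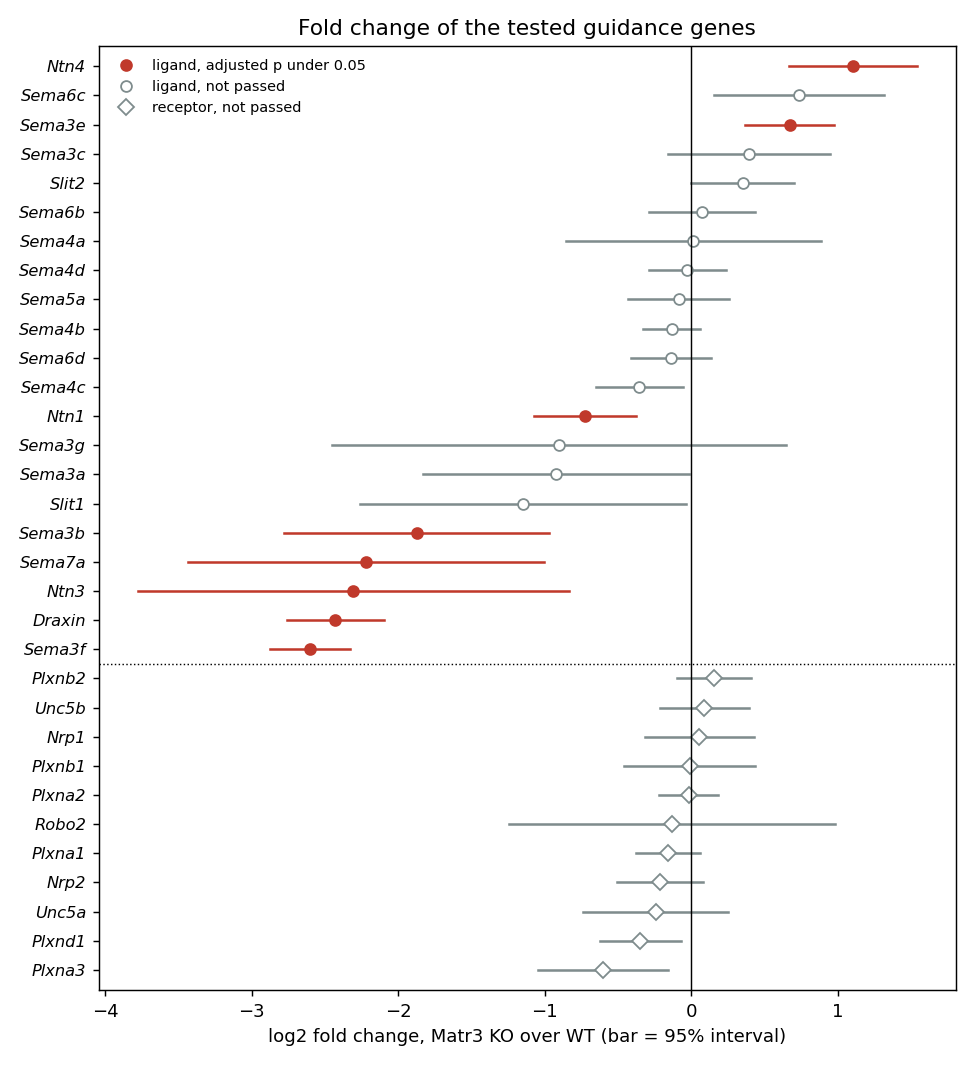
Log2 fold change (Matr3 knockout over wild type) of the 32 tested guidance genes, ligands above the dotted line and receptors below it; bars are 95% intervals and filled points passed an adjusted p of 0.05. The 8 filled points are all ligands, from Ntn4 at 1.10 to Sema3f at -2.61, while the fold changes of the 11 receptors lie between -0.60 and 0.15.

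Sema3f showed the deepest fall. It encodes a secreted class 3 semaphorin that acts through neuropilin-2 and A-type plexins and is known for repelling endothelial and tumour cells. Its level was 10.8, 8.55 and 9.74 CPM in the KO libraries, against 60.5, 62.0 and 54.4 CPM in the WT libraries. Every KO library lay far below every WT library. The means were 9.70 ± 1.13 CPM in KO cells and 59.0 ± 4.05 CPM in WT cells (SD, n = 3 each), a level 6.09-fold lower (log2 fold change -2.61, SE 0.119, edgeR quasi-likelihood adjusted p = 5.09e-05). Sema3f (ENSMUSG00000034684) lies on chromosome 9 from 107558699 to 107587674 on the minus strand, in the table's own coordinates, whose genome build could not be settled.

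Sema3b (ENSMUSG00000057969, from 107474873 to 107486428), the gene of another class 3 semaphorin, lies 72.3 kb from Sema3f on the same strand and also fell. Its counts were low, at 5, 11 and 6 in the KO libraries and 18, 29 and 26 in the WT libraries, and the groups did not overlap. In CPM this was 0.259 ± 0.0796 in KO cells and 0.972 ± 0.124 in WT cells (SD, n = 3 each; log2 fold change -1.87, SE 0.395, edgeR quasi-likelihood adjusted p = 0.0176). The log2 fold change is -0.74 in the authors' deposited table, and the value on log2(FPKM + 1), which understates changes of low genes, was -0.19. The call was lost without KO library 1 (adjusted p = 0.0947) or 3 (0.104) or WT library 2 (0.0766) or 3 (0.0798). Of the 33 other genes tested within 500 kb of Sema3f, 3 rose, 2 fell and 28 did not pass. Their median log2 fold change was 0.04. Among all tested genes 15.2% passed. Of the genes between Sema3b and Sema3f, Gnai2, a G-protein subunit gene, was at 401 CPM in KO cells and 371 CPM in WT cells (log2 fold change 0.11, edgeR quasi-likelihood adjusted p = 0.529). Gm19721 did not pass either (0.02, edgeR quasi-likelihood adjusted p = 0.984). The remaining 3 genes in that interval had too few counts to test: Slc38a3, an amino acid transporter gene, had 1 count in the KO libraries together and 19 in the WT libraries together, Gnat1 had 6 in each genotype, and A930036K24Rik had 0 in the KO libraries and 3 in the WT libraries. Beside Sema3b, the other tested gene that fell within 500 kb was Ifrd2 (-0.52, edgeR quasi-likelihood adjusted p = 0.0140).

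Sema3e (ENSMUSG00000063531, chromosome 5 from 14075290 to 14306703, plus strand) moved the other way. It encodes the class 3 semaphorin that binds plexin D1 without needing a neuropilin. It was at 26.1, 29.0 and 26.8 CPM in the KO libraries, against 15.0, 16.2 and 20.2 CPM in the WT libraries, and no KO library was as low as any WT library. The means of 27.3 ± 1.54 CPM in KO cells and 17.1 ± 2.74 CPM in WT cells (SD, n = 3 each) gave a level 1.59-fold higher (log2 fold change 0.67, SE 0.132, edgeR quasi-likelihood adjusted p = 0.0138). Without WT library 2 the change of 0.64 missed the threshold (adjusted p = 0.0654). Its nearest tested neighbour on chromosome 5 is Sema3a, the classical collapsing cue of growth cones, 423 kb away. Sema3a was at 0.713 ± 0.212 CPM in KO cells and 1.36 ± 0.479 CPM in WT cells (SD, n = 3 each; log2 fold change -0.92, edgeR quasi-likelihood adjusted p = 0.155), and its groups overlapped.

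The remaining class 3 genes did not pass. Sema3c, which can signal through either neuropilin, was at 6.11 ± 1.07 CPM in KO cells and 4.63 ± 1.27 CPM in WT cells (SD, n = 3 each; log2 fold change 0.40, 95% interval -0.16 to 0.95). Sema3g, a semaphorin known from vessels, had 19, 4 and 46 counts in the KO libraries and 27, 56 and 37 in the WT libraries, a spread within KO cells that exceeds the difference between groups. Sema3d was listed at 0.

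The pool of class 3 transcripts was smaller in KO cells, and a different gene led it. Summed over the 7 genes, the deposited FPKM came to 5.92, 5.98 and 5.98 in the KO libraries, against 14.0, 15.2 and 14.0 in the WT libraries. Sema3f supplied 35.0%, 27.7% and 31.3% of that sum in the KO libraries, against 81.5%, 78.4% and 75.0% in the WT libraries. For Sema3e the share was 47.3%, 52.6% and 48.2% in the KO libraries and 11.3%, 11.4% and 15.6% in the WT libraries. Sema3e was the leading class 3 transcript per length in every KO library and Sema3f in every WT library. A share also rises when another gene of the sum falls. Sema3c, which did not pass, gave a mean of 14.4% in the KO libraries and 4.47% in the WT libraries. These sums and shares are descriptions without a test.

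**Figure D2:**
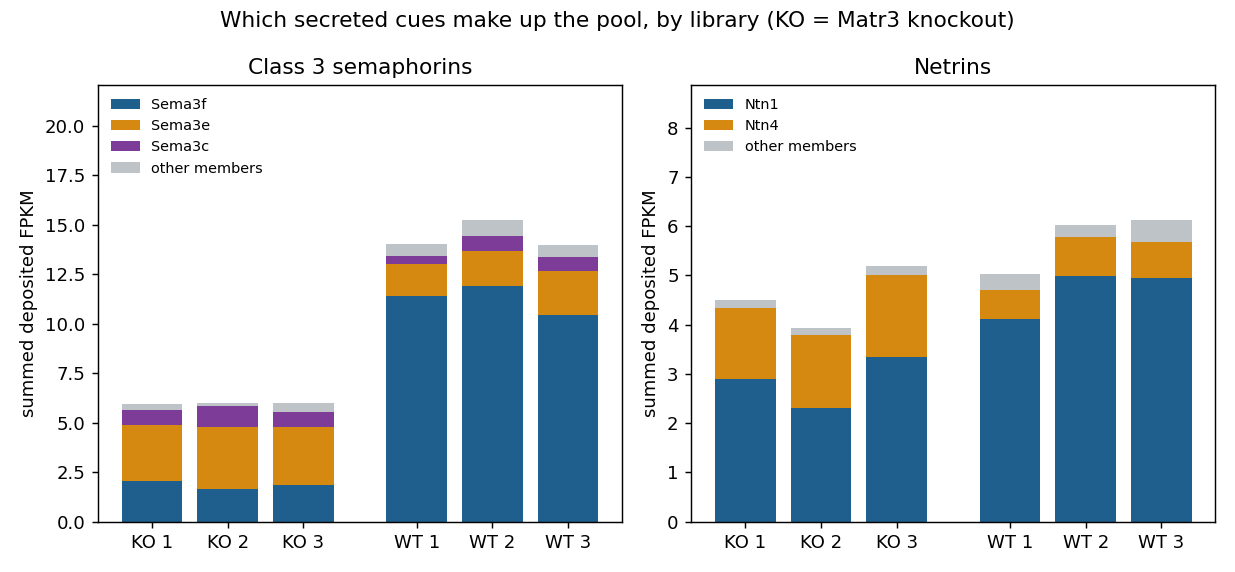
Summed deposited FPKM of the 7 class 3 semaphorins (left) and the 6 netrins (right) in each library, divided by gene. Sema3f supplies 27.7% to 35.0% of a smaller class 3 sum in the KO libraries, against 75.0% to 81.5% in the WT libraries, and Ntn4 takes 32.1% to 37.6% of the netrin sum in the KO libraries against 11.7% to 13.4% in the WT libraries.

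Among membrane-bound semaphorins the abundant genes did not pass, and only the low Sema7a was called among the 9 tested. Sema7a (ENSMUSG00000038264, chromosome 9 from 57847395 to 57870148, plus strand) encodes a GPI-anchored semaphorin that binds plexin C1 and integrin beta-1. It had 5, 2 and 4 counts in the KO libraries and 15, 13 and 20 in the WT libraries, with no overlap (log2 fold change -2.22, SE 0.530, edgeR quasi-likelihood adjusted p = 0.0274). The log2 fold change is -0.62 in the authors' deposited table and was -0.20 on log2(FPKM + 1). The call was lost without KO library 1 (adjusted p = 0.0659) or 3 (0.117) or WT library 1 (0.0512), 2 (0.0646) or 3 (0.113), and with DESeq2 (0.0564). Its receptor gene Plxnc1 had 9 counts in the 3 KO libraries and 16 in the WT libraries, too few to test.

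Sema6b, a ligand of A-type plexins, was at 45.0, 31.0 and 47.6 CPM in the KO libraries and 40.6, 40.5 and 36.3 CPM in the WT libraries. KO library 2 lay below all WT libraries and both other KO libraries above them (log2 fold change 0.07, 95% interval -0.29 to 0.44). Sema4b, a transmembrane class 4 semaphorin, was at 47.0, 43.7 and 49.6 CPM in the KO libraries and 52.7, 50.7 and 50.5 CPM in the WT libraries. The groups did not overlap, but the log2 difference of -0.14 (95% interval -0.33 to 0.06) did not pass. Sema4c, a ligand of plexin B2, was at 17.8, 14.2 and 18.4 CPM in the KO libraries and 23.1, 20.2 and 21.1 CPM in the WT libraries, again apart without passing (-0.35, edgeR quasi-likelihood adjusted p = 0.101). It passed with the per-library GC trend removed (-0.43, edgeR quasi-likelihood adjusted p = 0.0135).

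Sema4d, which binds plexins B1 and B2, was at 22.0, 18.9 and 20.2 CPM in the KO libraries and 20.5, 22.8 and 19.0 CPM in the WT libraries. The libraries of both genotypes intermingled (log2 fold change -0.03, 95% interval -0.29 to 0.24). Sema6d, a ligand of plexin A1, was at 13.9, 16.2 and 14.6 CPM in the KO libraries and 14.8, 17.2 and 17.3 CPM in the WT libraries, with overlap (-0.14, 95% interval -0.41 to 0.13). Of the less abundant genes, Sema6c averaged 2.59 ± 0.482 CPM in KO cells and 1.55 ± 0.0909 CPM in WT cells (SD, n = 3 each; log2 fold change 0.74, edgeR quasi-likelihood adjusted p = 0.0866). Sema5a, a transmembrane semaphorin with thrombospondin repeats, averaged 13.2 CPM in KO cells and 14.0 CPM in WT cells and did not pass. Sema4a averaged 0.975 CPM in KO cells and 0.971 CPM in WT cells. Sema4f, Sema4g and Sema6a had 2, 5 and 0 counts in the KO libraries together, and 2, 17 and 8 in the WT libraries together, and Sema5b was listed at 0.

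All 3 tested netrin genes passed, where 15.2% of all tested genes did, and they moved in both directions. Of these calls only that of Ntn4 held in all 19 alternative fits. Ntn1 (ENSMUSG00000020902, chromosome 11 from 68100190 to 68291649, minus strand) encodes netrin-1, the founding attractant and repellent of commissural axons and a survival ligand for cells with UNC5 receptors. Ntn1 was at 18.3, 14.4 and 20.9 CPM in the KO libraries, against 26.3, 31.3 and 31.1 CPM in the WT libraries, with no overlap. The means of 17.9 ± 3.27 CPM in KO cells and 29.6 ± 2.82 CPM in WT cells (SD, n = 3 each) gave a level 1.66-fold lower (log2 fold change -0.73, SE 0.151, edgeR quasi-likelihood adjusted p = 0.0169). The call was lost without KO library 1 (adjusted p = 0.0677), WT library 2 (0.0712) or WT library 3 (0.0729).

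Ntn4 (ENSMUSG00000020019, chromosome 10 from 93476543 to 93583069, plus strand) encodes netrin-4, which differs from the other netrins in binding laminin networks of basement membranes. It was at 5.43, 5.49 and 6.26 CPM in the KO libraries, against 2.24, 3.03 and 2.70 CPM in the WT libraries, each KO library above each WT library. The means were 5.73 ± 0.465 CPM in KO cells and 2.66 ± 0.398 CPM in WT cells (SD, n = 3 each), a level 2.15-fold higher (log2 fold change 1.10, SE 0.190, edgeR quasi-likelihood adjusted p = 0.00825). The log2 fold change is 0.89 in the authors' deposited table and was 0.57 on log2(FPKM + 1). Of its 13 tested neighbours within 500 kb on chromosome 10, 2 rose and 11 did not pass, where 15.2% of all tested genes passed. Those that rose were Snrpf (0.72, edgeR quasi-likelihood adjusted p = 0.0201) and Gm3571 (0.45, edgeR quasi-likelihood adjusted p = 0.0185).

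Ntn3 (ENSMUSG00000117406, chromosome 17 from 24422822 to 24428505, minus strand), a netrin gene known from sensory ganglia, had 10, 6 and 3 counts in the KO libraries and 17, 18 and 54 in the WT libraries. WT library 3 held most of the WT counts (log2 fold change -2.31, SE 0.643, edgeR quasi-likelihood adjusted p = 0.0464). The size of the fall was uncertain: the log2 fold change was -1.61 without WT library 3 and -0.22 on log2(FPKM + 1), and it is -0.76 in the authors' deposited table. Its call was lost without any 1 of the 6 libraries (adjusted p from 0.0597 to 0.185). Ntn3 also overlaps Tbc1d24 by 1715 bases on the same strand, so reads there could be counted for either gene, and Tbc1d24 did not pass (-0.03, edgeR quasi-likelihood adjusted p = 0.897). Ntn5, and Ntng2 of the membrane-anchored netrin-G type, had 7 and 25 counts in the KO libraries together and 12 and 10 in the WT libraries together, too few to test, and Ntng1 was listed at 0.

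By deposited FPKM summed over the 6 netrin genes, the KO libraries held 4.50, 3.93 and 5.20 and the WT libraries 5.04, 6.03 and 6.12. Ntn1 gave 64.5%, 58.9% and 64.2% of the netrin sum in the KO libraries, against 81.6%, 82.6% and 81.0% in the WT libraries. Ntn4 gave 32.1%, 37.6% and 32.2% in the KO libraries, against 11.7%, 13.4% and 11.8% in the WT libraries. Ntn1 remained the larger of the pair in all 6 libraries.

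Draxin, which encodes a secreted repellent that binds DCC and netrin-1, fell nearly as far as Sema3f. It was at 2.84, 2.65 and 2.39 CPM in the KO libraries, against 15.3, 13.7 and 13.5 CPM in the WT libraries. The groups stood far apart and varied little within themselves. The means were 2.63 ± 0.226 CPM in KO cells and 14.2 ± 0.979 CPM in WT cells (SD, n = 3 each), a level 5.40-fold lower (log2 fold change -2.43, SE 0.145, edgeR quasi-likelihood adjusted p = 0.000122). Draxin (ENSMUSG00000029005) lies on chromosome 4 from 148182894 to 148215155 on the minus strand. It overlaps the gene Mad2l2 on the opposite strand by 315 bases, and the sources used here do not say whether counting used strand. Mad2l2 was at 36.8 CPM in KO cells and 32.6 CPM in WT cells (log2 fold change 0.18, edgeR quasi-likelihood adjusted p = 0.307). Of 26 genes tested within 500 kb of Draxin, 3 fell, 1 rose and 22 did not pass, where 15.2% of all tested genes passed.

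**Figure D3:**
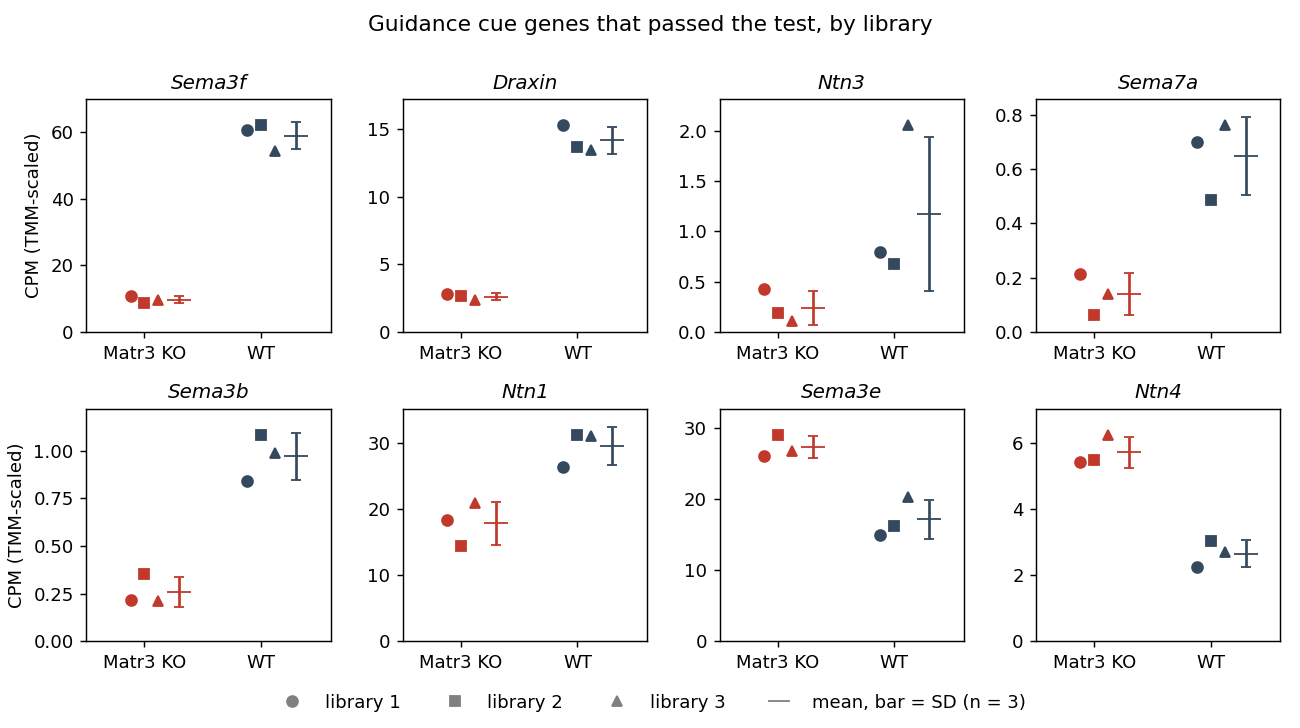
TMM-scaled CPM of the 8 guidance ligands that passed the test in each library, with the mean and SD (n = 3) beside the points; each panel has its own axis from 0. In every panel the 3 KO points lie on 1 side of the 3 WT points, and Sema3b, Ntn3 and Sema7a stay under 2.1 CPM throughout.

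Promoter sequences from RefSeq (build GRCm38.p6, from 250 bases before to 50 bases after the gene's start) matched 42 of the 51 genes. Those of Draxin and Ntn4 are shown, the genes with the largest called fall and the largest called rise among the genes matched. Draxin's window is chr4:148130649-148130948 on the minus strand and Ntn4's is chr10:93640799-93641098 on the plus strand, in GRCm38 and not in the table's coordinates, both printed 5′ to 3′ along the gene. Capitals mark the GC box GGGCGG on either strand, the binding motif of Sp1-type factors.
Draxin: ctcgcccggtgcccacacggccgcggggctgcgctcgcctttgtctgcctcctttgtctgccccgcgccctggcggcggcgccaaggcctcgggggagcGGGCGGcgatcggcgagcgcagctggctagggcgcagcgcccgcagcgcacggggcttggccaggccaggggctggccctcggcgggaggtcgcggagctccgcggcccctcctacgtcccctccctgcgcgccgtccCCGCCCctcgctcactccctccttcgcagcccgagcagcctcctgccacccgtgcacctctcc
Ntn4: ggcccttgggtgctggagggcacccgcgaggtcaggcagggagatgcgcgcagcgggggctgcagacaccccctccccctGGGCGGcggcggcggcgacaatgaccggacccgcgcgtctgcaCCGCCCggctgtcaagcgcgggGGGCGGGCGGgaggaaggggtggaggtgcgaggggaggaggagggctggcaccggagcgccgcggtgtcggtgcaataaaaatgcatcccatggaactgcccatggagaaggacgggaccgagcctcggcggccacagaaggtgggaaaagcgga
The Draxin window holds 2 GC boxes and 39 CpG dinucleotides, and the Ntn4 window 4 GC boxes, 2 of them overlapping each other by 2 bases, and 31 CpG dinucleotides. Over the 32841 windows of this length, 35.7% hold a GC box, and the median is 7 CpG. Neither window holds the core of the interferon-stimulated response element, GAAA and again GAAA with 2 bases between them on either strand, which 3.44% of all windows hold, nor TATAAA, held by 13.6%. Both windows hold more CpG than the median window, that of the gene that fell and that of the gene that rose. A match is a description of the letters and not a binding site.

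Slit genes were expressed at low levels and did not pass. Slit2, a repellent that binds Robo1 and Robo2, was at 9.09, 11.9 and 9.46 CPM in the KO libraries, against 7.56, 7.64 and 8.71 CPM in the WT libraries. The groups did not overlap, but the difference missed the threshold (log2 fold change 0.35, SE 0.153, edgeR quasi-likelihood adjusted p = 0.161). Slit1 had 28 counts in the KO libraries together and 55 in the WT libraries together (-1.15, edgeR quasi-likelihood adjusted p = 0.149), and Slit3 had 9 in the KO libraries and 16 in the WT libraries. Counts of their receptors were low. Robo2, the only Robo gene tested, had 33 counts in the KO libraries and 32 in the WT libraries, Robo1 had 7 in each genotype, Robo3 had 5 in the KO libraries and 8 in the WT libraries, and Robo4 was listed at 0.

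The receptors of semaphorins included the most abundant transcript of all 51 genes. Plxnb2, which encodes the plexin B2 receptor of class 4 semaphorins, was at 846, 894 and 808 CPM in the KO libraries and 661, 827 and 803 CPM in the WT libraries. The KO and WT ranges met, and the log2 fold change was 0.15 (95% interval -0.10 to 0.41). Per length it stood at 110 ± 6.00 FPKM in KO cells and 98.3 ± 12.6 FPKM in WT cells (SD, n = 3 each), and supplied 75.1% to 79.2% of the summed plexin FPKM in the KO libraries and 68.1% to 72.0% in the WT libraries.

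Plexin D1, the receptor of Sema3e, was encoded by a transcript at 121, 92.2 and 118 CPM in the KO libraries, against 137, 150 and 135 CPM in the WT libraries. The groups of Plxnd1 did not overlap, but the difference did not pass (log2 fold change -0.35, 95% interval -0.62 to -0.07, edgeR quasi-likelihood adjusted p = 0.0869). Plxna3, which with neuropilin-2 forms a receptor for Sema3f, was at 18.9, 17.9 and 17.6 CPM in the KO libraries, against 37.1, 21.8 and 23.7 CPM in the WT libraries. WT library 1 stood well above the other WT libraries. Plxna3 did not pass (-0.60, SE 0.194, edgeR quasi-likelihood adjusted p = 0.0721), and without WT library 1 the change was -0.31. The authors' deposited table calls Plxna3 lower, with a log2 fold change of -0.52 and an adjusted p of 0.0246. With the per-library trend of GC content removed, Plxna3 and Plxnd1 both passed (edgeR quasi-likelihood adjusted p = 0.0416 and 0.0139).

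Plxna1 and Plxna2, further A-type plexins, and the neuropilins overlapped between genotypes. Plxna1 was at 134, 119 and 127 CPM in the KO libraries and 129, 148 and 148 CPM in the WT libraries (log2 fold change -0.16, 95% interval -0.38 to 0.06). Plxna2 was at 35.1, 35.6 and 32.5 CPM in the KO libraries and 34.2, 34.0 and 36.4 CPM in the WT libraries (-0.02, 95% interval -0.22 to 0.19). In both genes the ranges of the genotypes overlapped. Nrp2, the co-receptor of Sema3f, was at 28.2, 28.3 and 33.3 CPM in the KO libraries and 29.3, 36.8 and 37.9 CPM in the WT libraries (-0.21, 95% interval -0.51 to 0.08). Nrp1, a co-receptor for class 3 semaphorins and for vascular endothelial growth factor, averaged 7.71 ± 0.860 CPM in KO cells and 7.42 ± 1.01 CPM in WT cells (SD, n = 3 each; 0.05, 95% interval -0.32 to 0.42). Plxnb1, a receptor of Sema4d, averaged 3.10 ± 0.0671 CPM in KO cells and 3.12 ± 0.361 CPM in WT cells (SD, n = 3 each; -0.01, 95% interval -0.46 to 0.44). Plxna4 and Plxnb3 had 5 and 11 counts in the KO libraries together and 14 and 10 in the WT libraries together.

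Netrin receptors were represented by Unc5b and, at a lower level, Unc5a, while Dcc, Unc5c, Unc5d and Unc5cl were listed at 0. Unc5b, a receptor known from vessel guidance and from cell death in the absence of netrin, was at 188, 144 and 188 CPM in the KO libraries and 147, 183 and 159 CPM in the WT libraries. The genotypes overlapped (log2 fold change 0.09, 95% interval -0.22 to 0.39). Unc5a was at 8.74, 5.33 and 8.86 CPM in the KO libraries and 8.59, 10.4 and 8.10 CPM in the WT libraries, also with overlap (-0.24, 95% interval -0.74 to 0.25). A group's 3 libraries with 0 counts allow up to 3 counts, 0.0364 CPM in KO cells and 0.0399 CPM in WT cells, counting error only. Itgb1, an integrin gene of nearly all adherent cells, was also listed at 0 in all 6 libraries, so a 0 in this table is given as listed and not as absence. Neo1, whose product neogenin also binds netrins, was at 137 ± 11.9 CPM in KO cells and 155 ± 26.1 CPM in WT cells (SD, n = 3 each; -0.18, 95% interval -0.49 to 0.13).

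**Figure D4:**
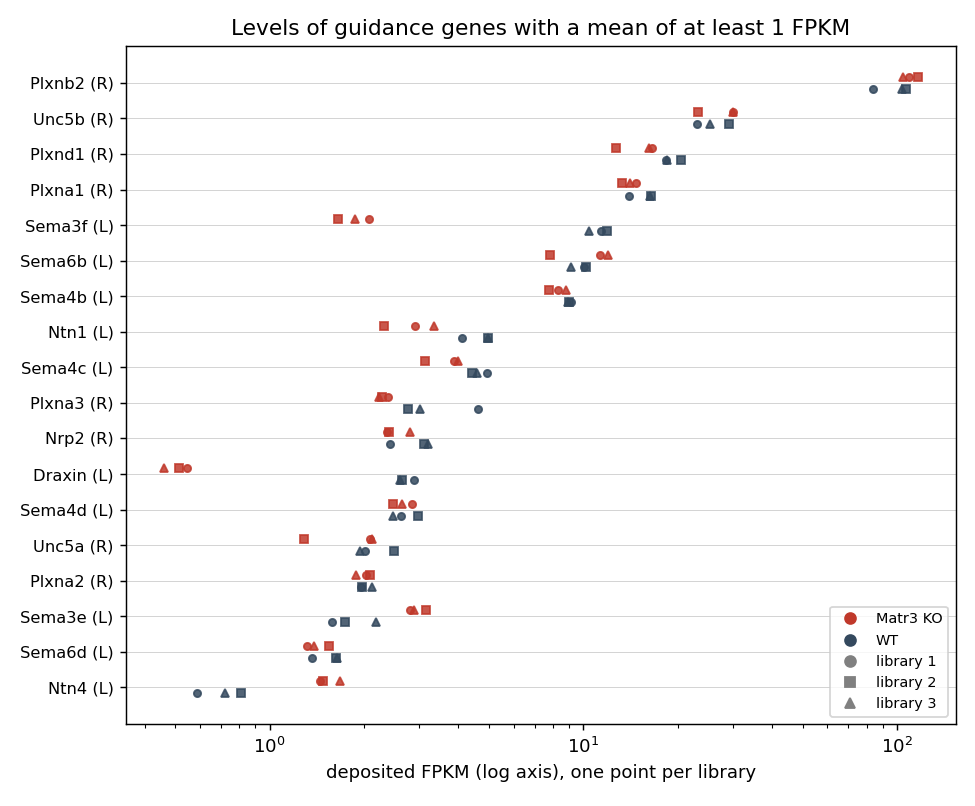
Deposited FPKM (log axis) of the 18 guidance genes that average at least 1 FPKM over the 6 libraries, 1 point per library, ordered by the WT mean; L marks ligands and R receptors. The 4 highest genes are receptors in both genotypes, Sema3f and Draxin move left in KO cells (1.87 against 11.3 FPKM and 0.506 against 2.71 FPKM), and Sema3e and Ntn4 move right.

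Per length, the order from the top was Plxnb2, Unc5b, Plxnd1 and Plxna1 in both genotypes. Plxnb2 and Unc5b were each clear of the next gene in both genotypes. The library ranges of Plxnd1 and Plxna1 met in KO cells but not in WT cells. Sema3f ranked 14 of the 51 in KO cells at 1.87 ± 0.207 FPKM and 5 in WT cells at 11.3 ± 0.743 FPKM (SD, n = 3 each). In WT cells it was the highest ligand and clear of Sema6b, the next gene. In KO cells Sema6b was the highest ligand, at 10.4 ± 2.21 FPKM, and its range met that of Sema4b. Sema3e ranked 8 in KO cells and 16 in WT cells, and Draxin ranked 21 in KO cells and 12 in WT cells. In bulk RNA, fewer cells expressing a gene and less RNA per cell cannot be told apart. Summed over the 30 ligand genes the FPKM was 40.3, 35.1 and 42.3 in the KO libraries, against 51.9, 53.9 and 51.4 in the WT libraries, and over the 21 receptor genes 180, 175 and 175 in the KO libraries, against 151, 185 and 176 in the WT libraries.

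The tested guidance genes were rich in G and C, with a median of 56.5% against 49.6% for all tested genes. KO library 2 was the lowest KO library for 12 of the 16 tested members at or above their own median and for 4 of the 16 below it. Without that library, and with the GC trend removed from all 6, Sema3f was at -2.52 and -2.66, Draxin at -2.44 and -2.50, Ntn4 at 1.14 and 1.05, Sema3e at 0.63 and 0.76 and Ntn1 at -0.59 and -0.80 on the log2 scale, and all 5 passed.

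Co-receptors and intracellular effectors of these pathways formed a list of 69 genes, of which 68 were found and 55 tested. Of the 55, 8 rose, 7 fell and 40 did not pass (edgeR quasi-likelihood test), with a median log2 fold change of -0.02. That is 27.3% called, against 15.2% of all tested genes. The list was chosen with earlier results of these data known, and the shares were not matched for expression level. The difference between the shares is therefore a description and was not tested. Crmp1, a collapsin response mediator that relays class 3 semaphorin signals to the cytoskeleton, fell to 19.4 ± 2.04 CPM in KO cells, against 41.3 ± 3.01 CPM in WT cells (SD, n = 3 each; -1.09, edgeR quasi-likelihood adjusted p = 0.00117). Its relative Dpysl3 rose, at 107 ± 6.92 CPM in KO cells and 74.4 ± 8.05 CPM in WT cells (0.53, edgeR quasi-likelihood adjusted p = 0.0144). Crmp1 and Dpysl3 thus moved in opposite directions. Of their relatives, Dpysl2 (0.11) and Dpysl5 (0.44) did not pass (edgeR quasi-likelihood adjusted p = 0.472 and 0.559), and Dpysl4 had too few counts to test.

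Genes of signalling next to the receptors also went both ways. Rras, a small GTPase that plexins switch off, rose to 78.7 ± 11.6 CPM in KO cells, against 43.6 ± 0.572 CPM in WT cells (SD, n = 3 each; 0.85, edgeR quasi-likelihood adjusted p = 0.00344). Fyn, a kinase downstream of plexin A and DCC, rose by 0.50 and Srgap3, a GTPase-activating protein that binds Robo receptors, by 0.71 on the log2 scale. Arhgef11, a nucleotide exchange factor that binds B-type plexins, rose by 0.33. Flrt2, a membrane ligand of UNC5 receptors, fell by 0.49, and Farp2, an exchange factor bound to plexin A, fell by 0.63. The kinase gene Limk1, whose product phosphorylates cofilin, fell by 0.66, Sdc1, a heparan sulfate proteoglycan, by 0.47 and Arhgap39, a GTPase-activating protein linked to Robo in Drosophila, by 0.53. The edgeR quasi-likelihood adjusted p of these 8 genes lay between 0.00647 and 0.0340. Without WT library 2 or 3, or KO library 1 or 3, the calls in this list numbered 6, 3, 3 and 4, and without KO library 2 they numbered 24.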

How the data were processed

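Hepa1-6 cells gave 3 Matr3 knockout (KO) and 3 wild-type (WT) bulk RNA-seq libraries, grouped by sample title. The authors deposited 1 table: raw counts per gene, FPKM, a mean signal of scaled counts per group, and the log2 fold changes and p-values of their own comparison. The sources used here name neither aligner nor counter, nor say whether strand was used. GRCm38 and mm10 are the builds in the submitters' processing notes, yet 0 of the 51 genes have the coordinates of GENCODE M21 on GRCm38, so the build of the table's coordinates could not be settled.

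Counts were tested with edgeR 4.0.16 in R 4.3.3 (filterByExpr, TMM, quasi-likelihood F test with no covariate, Benjamini-Hochberg over all 14842 tested genes, 0.05). Rows with an ID but no gene name held 0.251% of the counts and stayed in. CPM use TMM-adjusted library sizes, and intervals are 95%. Levels between genes use the deposited FPKM. All library pairs differed by more than counting noise (chi-square of at least 3.41 per gene). Members and lists were chosen with earlier results of these data known. Named with values are all called members, those with a mean of at least 1 FPKM, and up to 6 called genes per direction of the effector list (1 of them is not reported here); Gnai2, Gm19721, Slc38a3, Gnat1, A930036K24Rik, Ifrd2, Snrpf, Gm3571, Neo1 and Itgb1 were named after their values were seen. On simulated counts for this comparison, 81% of 2-fold and 100% of 4-fold changes of genes averaging at least 50 counts were recovered, among 14606 genes. Alternatives included DESeq2 1.42.0, limma 3.58.1, other scalings and filters, a replicate block, GC-trend removal (GC of the longest GENCODE M21 transcript, known for 98.8% of tested genes) and leaving libraries out.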

Additional observations from a re-analysis of the deposited data

How the results depend on the processing

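Sema3f, Draxin and Ntn4 kept their direction and their call in all 19 alternatives, Sema3e in 17 of 19, Ntn1 in 15 of 19, Sema3b in 13 of 18, Sema7a in 10 of 18 and Ntn3 in 6 of 18. No called gene changed direction in them. Leaving out 1 library at a time gave 3 to 8 called guidance genes, 3 to 24 called effector genes and 807 to 4295 called genes in all. Without KO library 2 and WT library 1 together these were 16, 38 and 7556, against 8, 15 and 2252 in the main fit. The cause was not tested. Called receptors numbered 4 without those libraries, 2 with the GC trend removed, 1 with DESeq2 and 1 with low counts left in. Testing genes from a mean of 1 CPM upwards left 5 called guidance genes and no test for Sema3b, Sema7a and Ntn3. At an adjusted p of 0.01, 3 guidance genes, 3 effector genes and 721 genes were called.

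The labels do not say that replicate numbers pair the libraries. Deviations of same-numbered libraries correlated at 0.17, -0.03 and -0.20, and KO library 2 correlated best with WT library 3 (0.28). With 3 libraries per group these values cannot exclude a pairing. With the replicate block 7 guidance genes, 11 effector genes and 1599 genes in all were called, and with the GC trend removed as well 10, 16 and 2437. Depth limits Sema3b, Ntn3 and Sema7a, with at most 89 counts per group.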
